A study of Mus musculus and Homo sapiens with 10 samples.

Results

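Very long protein-coding genes outside the large adhesion and ion channel families were described by where they lie relative to the nuclear lamina. They are the genes whose annotated span is at least 500 kb on mouse chromosomes 1 to 19 and X (mm10), without those whose symbols begin with the letters of the left-out families, such as Cdh, Pcdh, Cntn, Nrxn, Gri, Kcn, Cacna and Adam. The rule gave 183 of 21523 protein-coding genes, and 44 further genes of that length were left out by symbol. The choice used gene length and symbol only, and no measured value. The members spanned 502 kb (Edil3) to 2.39 Mb (Dmd) with a median of 703 kb, and together they covered 151 Mb. Of them, 44 were 1 Mb or longer and 4 were 2 Mb or longer.

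In DamID, a protein of interest is joined to Dam, a bacterial enzyme that methylates adenine at GATC, so that DNA near the protein carries the mark. N2A cells, a mouse neuroblastoma line, carried LaminB1-Dam, a fusion to a protein of the nuclear lamina, and expression was induced with 2 µg/mL doxycycline. LaminB1-Dam was read by Nanopore in 1 sample and in 1 more sample labelled 10% LaminB1-Dam, and by Illumina in 2 samples, beside Dam alone by each method (1 sample each) and wild-type N2A (1 sample). The values were 2 deposited lists of lamina-associated domains (LADs), which are stretches of chromatin at the lamina: 1174 from Nanopore and 1149 from Illumina on these chromosomes. The sources used here do not give which samples entered each list. The remaining 3 samples, from the human line HEK293T, were not used here. The lists hold positions on a 20 kb grid with no value per sample, so depth is unknown, no spread between replicates exists, and no difference below was tested.

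In mammalian cells LADs are mostly gene-poor, AT-rich and transcriptionally quiet, and genes with very long introns are often found there. Many of the longest mammalian genes are used in neurons, muscle or heart, and several coincide with common fragile sites in human cells, where replication finishes late. A gene of this size can lie in a single LAD, cross a LAD border, or hold several LADs, so its start and its far end need not share a state. A LAD call is a call of contact with the lamina and not of transcription.

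The label calls these genes outside adhesion and channel families, which the rule achieves only in part. For this report, genes were grouped by function from general knowledge of the genes. By these groups, 29 of the 183 members still encode adhesion proteins, channels or channel partners. They are 4 IgLON genes, 13 other adhesion and synaptic surface genes such as Dscam and Cadm2, and 12 channel genes or partners such as Ryr2 and Trpm3. A further 3 members, Gm37013, Gm38666 and Gm38667, are overlapping predicted genes, each of which overlaps 57 genes of the clustered protocadherins, so they are not independent of each other or of that family. The members are therefore best read as a length class.

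The windows around the annotated starts of 6 members are shown because the results turn on whether a start lies in a LAD, and because GATC, in capitals, is the sequence that Dam marks and DpnI cuts. Each runs from 250 bases before to 50 bases after a start listed by RefSeq on GRCm38.p6, the assembly behind mm10. Macrod2 and Gpc5 have starts and far ends in LADs of both lists. Lsamp has its start inside and its far end outside. Ctnna3 and Asic2 have starts outside and far ends inside, and Ptprt has neither in a LAD.
Macrod2, chr2:140395180-140395479, plus strand: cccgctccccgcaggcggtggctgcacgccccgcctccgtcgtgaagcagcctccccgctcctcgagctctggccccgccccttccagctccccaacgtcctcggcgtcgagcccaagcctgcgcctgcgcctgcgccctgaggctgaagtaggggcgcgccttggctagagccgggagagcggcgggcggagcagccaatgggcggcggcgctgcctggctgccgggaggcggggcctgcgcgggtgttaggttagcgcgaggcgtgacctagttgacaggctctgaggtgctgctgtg
Gpc5, chr14:115091965-115092264, plus strand: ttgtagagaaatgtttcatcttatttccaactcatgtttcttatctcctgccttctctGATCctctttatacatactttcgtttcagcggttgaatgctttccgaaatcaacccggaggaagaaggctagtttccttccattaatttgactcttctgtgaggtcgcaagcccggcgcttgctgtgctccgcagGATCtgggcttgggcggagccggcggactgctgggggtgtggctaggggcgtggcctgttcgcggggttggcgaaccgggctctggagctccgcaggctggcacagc
Lsamp, chr16:39984114-39984413, plus strand: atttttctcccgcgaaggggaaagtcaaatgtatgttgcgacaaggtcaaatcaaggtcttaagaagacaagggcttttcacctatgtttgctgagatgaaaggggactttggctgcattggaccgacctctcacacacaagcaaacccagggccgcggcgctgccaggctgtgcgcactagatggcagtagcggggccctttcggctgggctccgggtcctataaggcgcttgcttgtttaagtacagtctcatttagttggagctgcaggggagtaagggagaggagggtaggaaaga
Ctnna3, chr10:63429848-63430147, plus strand: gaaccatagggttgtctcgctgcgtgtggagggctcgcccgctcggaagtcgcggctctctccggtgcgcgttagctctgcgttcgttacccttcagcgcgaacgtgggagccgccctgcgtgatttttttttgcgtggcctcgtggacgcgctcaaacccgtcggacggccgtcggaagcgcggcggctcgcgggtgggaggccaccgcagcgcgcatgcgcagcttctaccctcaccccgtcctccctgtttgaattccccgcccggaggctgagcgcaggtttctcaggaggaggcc
Asic2, chr11:81968347-81968646, minus strand: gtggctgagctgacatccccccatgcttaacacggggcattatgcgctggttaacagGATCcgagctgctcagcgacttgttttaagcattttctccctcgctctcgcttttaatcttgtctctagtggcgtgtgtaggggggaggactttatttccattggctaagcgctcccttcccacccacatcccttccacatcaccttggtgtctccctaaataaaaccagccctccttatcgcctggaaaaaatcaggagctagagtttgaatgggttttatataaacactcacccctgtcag
Ptprt, chr2:162661098-162661397, minus strand: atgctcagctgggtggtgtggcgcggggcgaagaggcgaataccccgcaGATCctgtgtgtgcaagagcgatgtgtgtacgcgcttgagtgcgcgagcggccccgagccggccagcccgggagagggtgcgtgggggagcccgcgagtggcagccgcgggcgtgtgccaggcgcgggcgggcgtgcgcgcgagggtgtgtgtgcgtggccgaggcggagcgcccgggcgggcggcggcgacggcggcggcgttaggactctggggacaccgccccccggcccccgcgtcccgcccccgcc
The Macrod2 window has 73.7% G and C with 33 CpG dinucleotides and no GATC, although it lies in a LAD. Ptprt, outside LADs, has 77.3% with 46 CpG and 1 GATC. The Gpc5 window has 54.7% with 17 CpG and 2 GATC, and the Lsamp window 53.0% with 12 CpG and none. Ctnna3 has 67.0% with 39 CpG and no GATC, and Asic2 has 49.7% with 9 CpG and 1 GATC. GATC reads the same on both strands. It occurred in 69 of 146 windows at the outermost listed start of a member (47.3%), against 7996 of 17274 (46.3%) for all protein-coding genes with a listed start. A window without GATC can still lie in a LAD, since the lists are called over 20 kb steps.

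Most of the very long genes had most of their body in LADs, and a body partly inside was more frequent among them than among all genes. At least 50% of the body was in LADs for 131 of 183 members by Nanopore (71.6%, where 28.9% of all protein-coding genes passed) and for 119 by Illumina (65.0%, where 25.4% of all passed). The whole body was inside for 83 members by Nanopore (all genes, 26.8%) and 77 by Illumina (23.5%), 73 of them by both. No base was inside for 35 by Nanopore (all genes, 69.6%) and 44 by Illumina (73.4%), with 35 at 0 by both. The median share of the body was 98.0% by Nanopore (quartiles 38.6 and 100%) and 94.1% by Illumina (10.9 and 100%), and the median over all protein-coding genes was 0 with each list. Part of the body was inside in 65 members by Nanopore (35.5%, all genes 3.63%) and 62 by Illumina (33.9%, all genes 3.15%). Shares between 10 and 90% were found in 38 members by Nanopore (20.8%, all genes 2.63%) and 40 by Illumina (21.9%, all genes 2.25%). Among genes of 200 to 500 kb, 15.7% by Nanopore and 12.1% by Illumina had such a share.

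The members were set beside other length classes, as a description. Genes of the same length left out by symbol had higher shares, with 84.1% of 44 at or past 50% of the body in each list. Genes of 200 to 500 kb had 50.1% of 763 by Nanopore and 43.0% by Illumina. The share was 20.9 and 17.3% for genes of 20 to 50 kb, the lowest class, and 31.2 and 28.1% for genes under 20 kb. Gene length and LAD share thus did not run in 1 direction over all genes. By bases, 72.7% of the members' sequence was in Nanopore LADs and 67.7% in Illumina LADs, above the coverage of the whole span by each list, 57.6 and 52.6%. Among the members themselves, length and share were hardly related (Spearman's rho 0.07 over 183 genes with each list, a description, as neighbours share LADs). Of the 44 members of 1 Mb or more, 84.1% passed 50% by Nanopore and 72.7% by Illumina. Of the 37 between 750 kb and 1 Mb 73.0 and 59.5% did, and of the 102 between 500 and 750 kb 65.7 and 63.7%. By Illumina the middle class was thus the lowest.

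**Figure D1:**
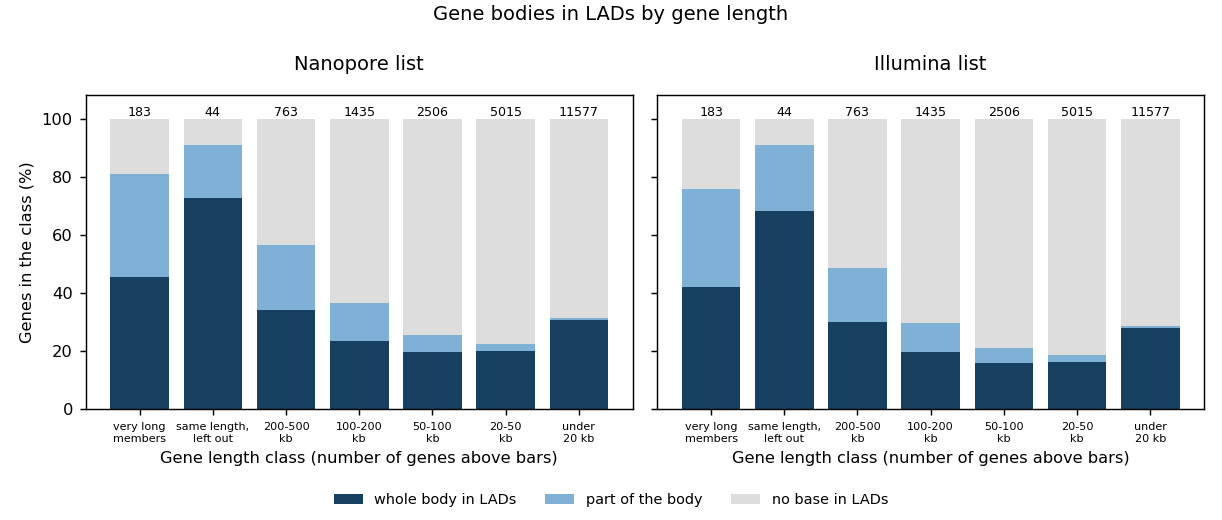
Percentage of genes (vertical axis) with the whole body, part of the body or no base in LADs, by gene length class (horizontal axis), for the Nanopore list (left) and the Illumina list (right); numbers above the bars are genes in the class. The very long members had the whole body inside in 45.4% of cases by Nanopore and 42.1% by Illumina, below the left-out genes of the same length (72.7 and 68.2%) and above genes of 200 to 500 kb (34.2 and 29.9%).

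The 12 longest members showed each of these arrangements. Dmd, which encodes dystrophin, the protein that ties the muscle cytoskeleton to the membrane (chromosome X, 82814664 to 85205050), had 100% of its body in a Nanopore LAD of 7.56 Mb and 96.4% in an Illumina LAD of 6.18 Mb. Its far end alone was outside the Illumina list. Ptprd, a receptor tyrosine phosphatase of synapses (chromosome 4, 75941237 to 78211742), was wholly inside by both. Csmd1, a complement-regulating membrane protein (chromosome 8, 15892538 to 17535385), and Dpp10, a partner of voltage-gated potassium channels (chromosome 1, 123332138 to 124845815), were also 100% inside by both lists. By Nanopore these 4 genes each lay within a single LAD.

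Other genes among the 12 longest were interrupted. Lrp1b, a large LDL-receptor relative (chromosome 2, 40595290 to 42653598), had 94.2% of its body in Nanopore LADs and 100% in an Illumina LAD. The difference was a gap of 120 kb between 2 Nanopore LADs in the middle of the gene. Macrod2, which encodes an ADP-ribose hydrolase (chromosome 2, 140395303 to 142392966), had 67.0% by each list in 3 identical pieces, with both ends inside and a largest gap of 480 kb. Dlg2, the scaffold PSD-93 (chromosome 7, 90476188 to 92449246), had 48.7% by Nanopore and 46.6% by Illumina in a single LAD, with both ends outside. That LAD began 3.81 kb after the gene's start by Nanopore and 23.8 kb after it by Illumina, which is 1 step of the grid apart. The outermost start that RefSeq lists for Dlg2 lies 614598 bases inside the annotated span, and it is in the LAD in both lists. The state of both ends thus left out the gaps inside Macrod2 and the LAD inside Dlg2.

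The remaining genes of this set crossed a single border or nearly so. Lsamp, an IgLON cell surface protein (chromosome 16, 39984254 to 42181679), was inside from its start for 2156 kb by Nanopore and 1696 kb by Illumina, 98.1 and 77.2% of its body. Fhit, a diadenosine triphosphate hydrolase at the best known human fragile site (chromosome 14, 9550092 to 11162061), was inside over its first 1102 kb by both lists, 68.4%. Rbfox1, a neuronal splicing factor (chromosome 16, 5884793 to 7412480), had its first 455 kb in a Nanopore LAD and 29.8% inside in all, against 39.0% by Illumina in 2 pieces. Magi2, a synaptic scaffold (chromosome 5, 19219387 to 20704792), had 98.3 and 99.7%, and lost only its far end. Ctnna3, the alpha-T catenin of heart muscle (chromosome 10, 63430098 to 65003667), had 99.4 and 98.1%, and its start lay 9.9 kb by Nanopore and 29.9 kb by Illumina before the LAD. In 4 of these 5 genes the start was the end inside.

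**Figure D2:**
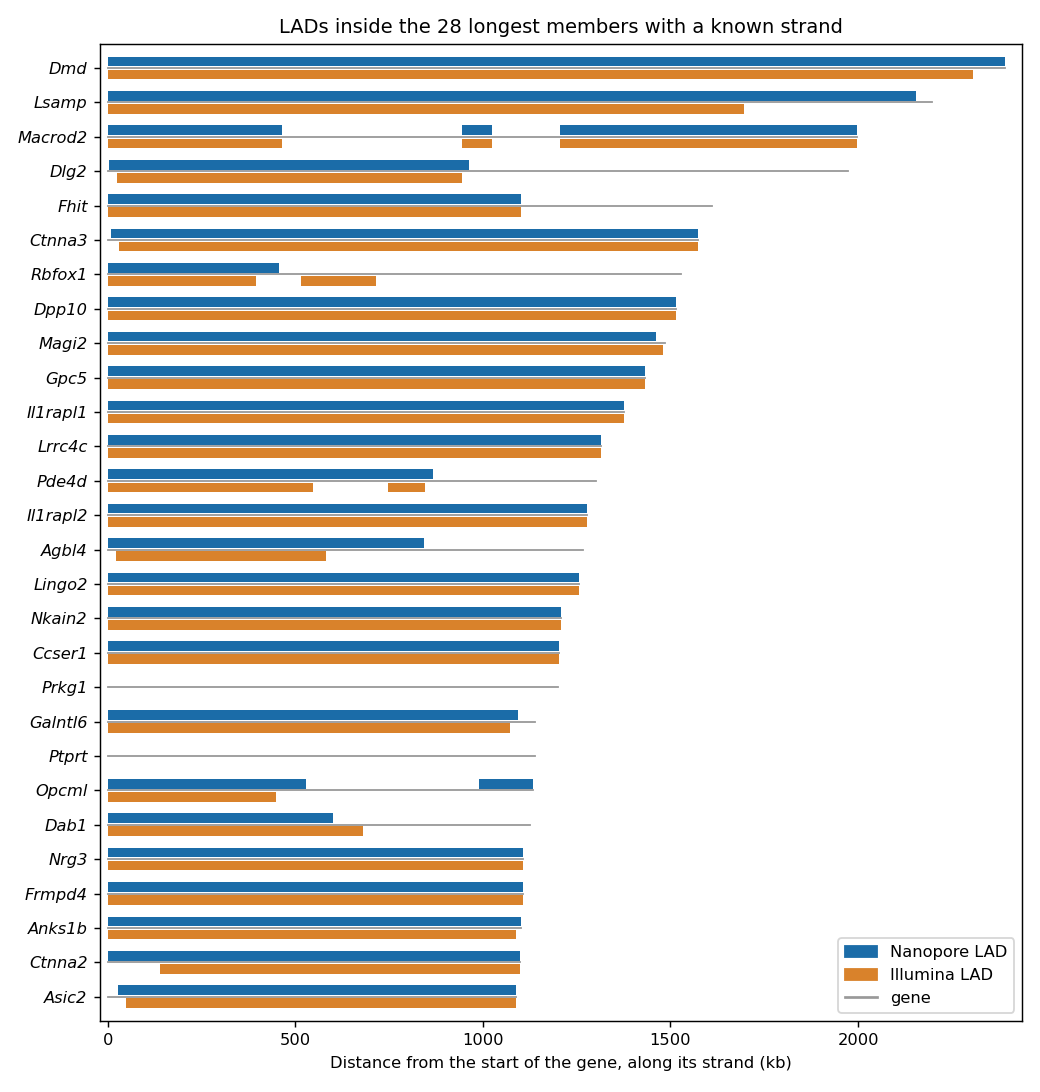
LADs inside the 28 longest members with a known strand. Each row is a gene (grey line) drawn from its start along its strand in kb, with Nanopore LADs above the line in blue and Illumina LADs below it in orange; Macrod2 shows 3 pieces in each list, Prkg1 and Ptprt hold none, and Fhit is inside over its first 1102 kb.

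Both ends lay in LADs for 95 of 183 members by Nanopore (51.9%, where 26.9% of all protein-coding genes passed) and 81 by Illumina (44.3%, all genes 23.5%). Exactly 1 end was inside for 47 members by Nanopore (all genes, 3.4%) and 51 by Illumina (2.97%). Neither end was inside for 41 (all genes, 69.7%) and 51 (73.5%). A longer span can hold more borders, and most protein-coding genes are far shorter, so this background is not matched for length. A border lay inside 65 members by Nanopore and 62 by Illumina, at most 4 in a gene. Per Mb of gene the members held 0.641 borders by Nanopore and 0.562 by Illumina, fewer than the whole span with 0.913 and 0.894. Genes of 200 to 500 kb were also below the span, with 0.826 and 0.705. The left-out genes of the same length held fewer than the members, 0.192 and 0.264. Both ends were called alike by both lists in 151 members.

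The ends could be named for 146 members whose strand is given with a RefSeq start, and here the start is the edge of the annotated gene on that strand. By Nanopore the start was inside a LAD in 97 (66.4%, all genes with a strand 28.7%) and the far end in 85 (58.2%, all genes 28.8%). By Illumina the start was inside in 95 (65.1%, all genes 25.4%) and the far end in 72 (49.3%, all genes 25.1%). Starts were thus inside more often than far ends in both lists. Over all genes the shares were nearly equal, but most genes are far shorter and few have ends in different states. Left-out genes of the same length had more starts than far ends inside, 84.8 against 72.7% by Nanopore and 84.8 against 69.7% by Illumina. Genes of 200 to 500 kb had 43.9 against 43.7% by Nanopore and 39.5 against 37.2% by Illumina.

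By counting alone, the difference between starts and far ends equals the genes with only the start inside less those with only the far end inside. By Nanopore, 24 members had the start inside and the far end outside (16.4%, all genes with a strand 1.52%), and 12 had the reverse (8.2%, all genes 1.62%). By Illumina, 34 had the start inside and the far end outside (23.3%, all genes 1.59%), and 11 the reverse (7.5%, all genes 1.34%). In both lists at once, 22 members had only the start inside and 7 only the far end. No such count over both lists is given here for all genes. Genes of 200 to 500 kb split nearly evenly by Nanopore, 51 with only the start inside and 50 with only the far end, and less evenly by Illumina, 52 and 39. The left-out genes of the same length had more with only the start inside, as the members did, 5 against 1 with only the far end by Nanopore and 6 against 1 by Illumina. Borders inside the members, read from the start, led out of a LAD 40 times and into one 28 times by Nanopore, and 47 and 24 times by Illumina. In genes of 200 to 500 kb they led out 69 times and in 68 times by Nanopore, and 67 and 54 times by Illumina. In the left-out genes of the same length the counts were 5 and 1 by Nanopore, and 7 and 2 by Illumina. Whether this split exceeds what neighbouring LADs and shared borders give was not tested.

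Among the genes with only the start inside in both lists, the longest were Lsamp, Fhit, Rbfox1, Magi2, Pde4d and Galntl6. Pde4d, a cAMP phosphodiesterase (chromosome 13, 108654177 to 109955969), was inside over its first 866 kb by Nanopore, and by Illumina over its first 546 kb and a piece of 100 kb beyond, 66.5 and 49.6% of its body. Galntl6, of the GalNAc-transferase family (chromosome 8, 57772489 to 58912531), had 95.8 and 94.1% inside. Others of this class were Dab1, the reelin adaptor, Dpp6, the nuclear receptor gene Rora, and the retinoic acid receptor gene Rarb. Rora (chromosome 9, 68653404 to 69388246) was inside by 93.4% with each list and Rarb (chromosome 14, 16430839 to 17082331) by 95.5%. For Rarb the RefSeq start used lies 506855 bases inside the annotated edge and is also in a LAD. The median share of the body in this class was 80.4% of 24 genes by Nanopore and 73.8% of 34 by Illumina. In genes with a single border that led out of a LAD, the border lay at a median of 80.4% of the way from the start by Nanopore (24 genes) and 77.4% by Illumina (30 genes).

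The genes with only the far end inside were Ctnna3, Asic2, Lrmda, Astn2, Sugct, Ppargc1a and L3mbtl4 in both lists. In most of them the LAD began soon after the start. Asic2, an acid-sensing sodium channel (chromosome 11, 80880163 to 81968396), was inside from 28.4 kb by Nanopore and 48.4 kb by Illumina onward. Ppargc1a, the PGC-1 alpha coactivator of mitochondrial genes (chromosome 5, 51454249 to 52115853), was inside from 55.9 kb onward by both, and the one start that RefSeq lists for it, 548128 bases inside the annotated edge, is in the LAD in both lists. Sugct, which encodes a mitochondrial CoA-transferase (chromosome 13, 16857472 to 17694795), was inside from 14.8 kb by both. Astn2, which encodes a neuronal membrane protein of glial-guided migration (chromosome 4, 65380803 to 66404537), was the exception, with LADs only beyond 825 kb and 19.5% inside by each list. The median distance from start to LAD was 24.4 kb over the 12 genes of this class by Nanopore and 48.4 kb over the 11 by Illumina. Several of these distances are 1 or 2 steps of the 20 kb grid, so the call of the start rests on the grid in those genes.

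**Figure D3:**
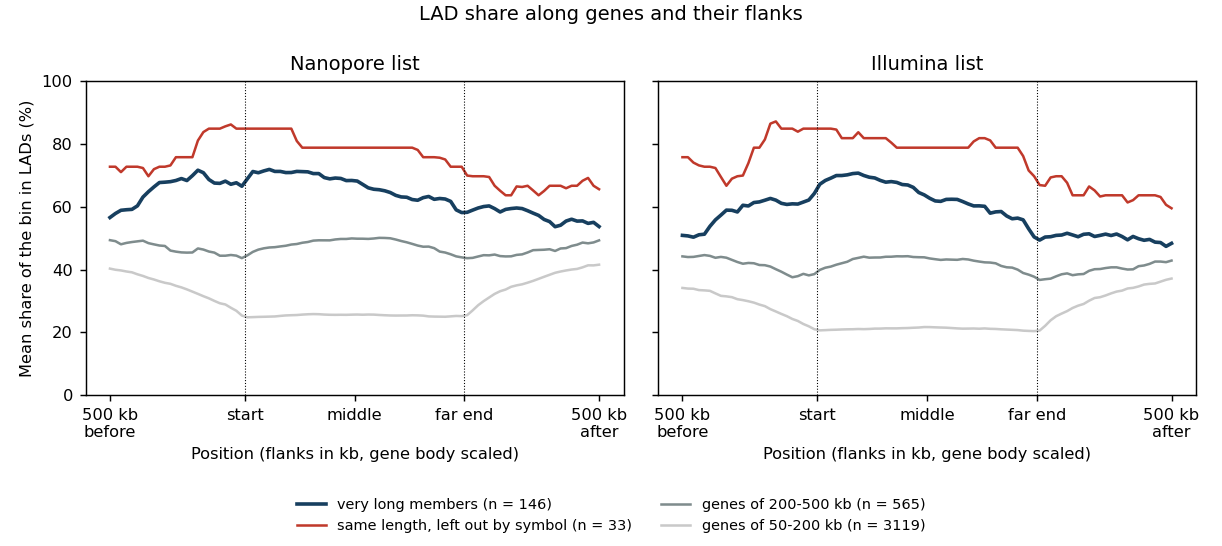
Mean share of each bin in LADs (vertical axis, percent) from 500 kb before the start to 500 kb after the far end (horizontal axis; flanks in bins of 20 kb, gene bodies scaled to 40 bins), by the Nanopore list (left) and the Illumina list (right). The line of the very long members has its highest bin early in the body, 71.9% by Nanopore and 70.7% by Illumina, and lies at 58.1 and 50.4% in the last bin.

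Averaged along the gene, LAD share was higher in the first part of the members than in the last. The first 10% of the body was 70.6% in LADs by Nanopore and 68.6% by Illumina, the middle 10% 68.0 and 63.2%, and the last 10% 60.3 and 53.9%. The 20 kb before the start had 66.5 and 64.2%, and the 20 kb after the far end 58.2 and 49.4%. The left-out genes of the same length (33 with a strand) had 84.8% in the first and 73.3% in the last 10% of the body by Nanopore, and 84.8 and 74.0% by Illumina. Genes of 200 to 500 kb had 45.8% in the first and 44.6% in the last 10% by Nanopore, and 40.7 and 38.7% by Illumina. Genes of 50 to 200 kb had 24.9% in the first 10% by Nanopore, close to the 25.4% of the 20 kb before their start. Both values lay below the 40.3% of the bin 500 kb before the start. The members had 56.6% in that bin by Nanopore and 50.9% by Illumina. Their flank nearer the start was close to the body, with up to 71.6% before the start by Nanopore and up to 64.2% by Illumina, while no bin after the far end passed 60.3% by Nanopore or 51.6% by Illumina.

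Some members have several annotated starts. RefSeq lists 230 starts for the 146 members, and 53 members have more than 1. All listed starts were inside in 26 of those 53 by Nanopore and 27 by Illumina, none in 16 by each, and the starts differed in state in 11 and 10. Where they differed, the outermost start was inside and an inner one outside in 8 members by each list, and the reverse in 3 by Nanopore and 2 by Illumina. Rbfox1 had its outermost start inside by both lists and a start 1185 kb downstream outside. Dab1 did so with a start 748 kb downstream, and Rbms3, an RNA-binding protein gene, with one 377 kb downstream. Fgf13, which encodes a partner of sodium channels (chromosome X, 59062139 to 59585572), had its outermost start inside by both, a start 18.2 kb further in the Illumina list only, and 2 more starts outside both. Asic2 was the reverse case, with its outermost start outside and one 815 kb downstream inside by both. A short isoform and a long isoform of a member can thus start in different states. The same counts were not made for other genes with several starts, so they are not shown to be particular to the members.

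Starts of very long genes in LADs were richer in G and C than most starts in LADs. At the outermost listed start, the 97 windows inside Nanopore LADs had a median of 57.3% G and C and 13 CpG, and the 49 outside had 66.0% and 21 CpG. By Illumina the medians were 57.7% for 95 inside and 65.7% for 51 outside. For all protein-coding genes the median was 46.0% inside and 59.3% outside Nanopore LADs, and 45.3 and 59.0% by Illumina. Windows of at least 55% G and C made up 55 of the 97 inside (56.7%), against 24.2% of 4959 for all genes by Nanopore, and 55 of 95 (57.9%) against 22.0% of 4389 by Illumina. Genes of 200 to 500 kb had about the same share inside, 62.8 and 62.1%, and genes under 50 kb 14.8 and 12.8%, so such starts were not confined to the members. Members were also classed by the state of the gene's edges, with the window still taken at the outermost listed start. Those with only the start edge inside had a median of 54.2% by Nanopore and 53.3% by Illumina, and those with both edges inside 58.7 and 59.3%. The window can lie far from the edge and in another state. In Etl4, with only the start edge inside, it lies 379706 bases in and is outside LADs in both lists.

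**Figure D4:**
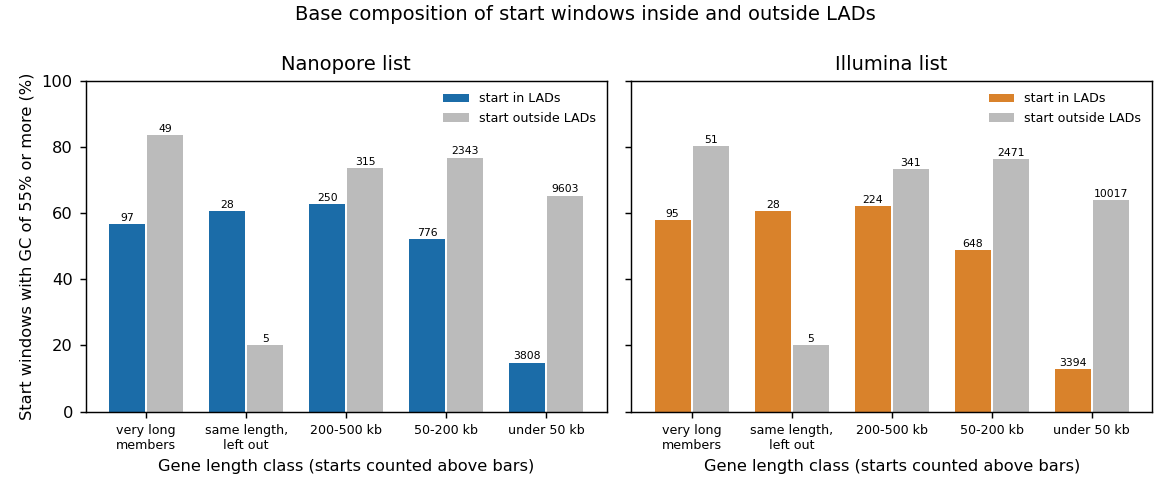
Percentage of start windows with at least 55% G and C (vertical axis) for starts in LADs (coloured bars) and outside LADs (grey bars), by gene length class (horizontal axis), for the Nanopore list (left) and the Illumina list (right); numbers above bars are starts. The very long members had 56.7 and 57.9% inside LADs, genes under 50 kb 14.8 and 12.8%; the left-out class has only 5 starts outside.

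By function, 138 members fell into 13 groups and 45 into none. Over all members 118 of 183 (64.5%) had at least 50% of the body inside in both lists, against 24.7% of all protein-coding genes. The groups hold 4 to 20 genes, no group was tested against the others, and many counts lie near the share over all members, so they are given as a description of which genes lay where. Channels and channel partners had 10 of 12 members at or past 50% of the body in both lists. Dpp10 and Nkain2, which interacts with the sodium pump, were wholly inside, and Dpp6 (chromosome 5, 26817357 to 27727500) had 75.0% by Nanopore and 86.0% by Illumina. Ryr2, the calcium release channel of heart muscle (chromosome 13, 11553099 to 12106945), had no base in either list. The exceptions in this group were thus Ryr2 and Fgf13.

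The dystrophin complex had 4 of 5 members past 50% in both lists. Dmd stood beside Sgcz (chromosome 8, 37517840 to 38661705) and Sgcd (chromosome 11, 46971077 to 47989451), which encode sarcoglycans, and Sntg1, a syntrophin, all 3 wholly inside. The group of CSMD and LRP genes, which also holds Sorcs1, had 5 of 6, with Csmd1 and Csmd3 wholly inside. Sorcs1 (chromosome 19, 50143295 to 50679129), a sorting receptor that is neither a CSMD nor an LRP gene, had 6.85% by Nanopore and none by Illumina.

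The other adhesion and synaptic surface genes had 9 of 13 in both lists and 1, Fat3, by Illumina only. Il1rapl1 (chromosome X, 86740937 to 88115948) and Lrrc4c (chromosome 2, 96318169 to 97631672), which encode synapse-organizing proteins, were wholly inside. Dscam, a neuronal self-avoidance receptor (chromosome 16, 96587452 to 97171113), had no base in either list. All 4 IgLON genes passed 50% by Nanopore and 2 by Illumina. Negr1 (chromosome 3, 156561790 to 157316464) was wholly inside by both. Opcml (chromosome 9, 27790716 to 28925410) had 59.5% by Nanopore and 39.6% by Illumina, and its neighbour Ntm (28994749 to 29963269) 54.6 and 49.9%. Opcml and Ntm point at each other with their far ends, both annotated starts were inside in both lists, and their far ends met in a Nanopore LAD (28780001 to 29000000) that the Illumina list lacks. The outermost start listed for Ntm, 549817 bases inside its edge, is outside LADs in both lists.

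Receptor tyrosine phosphatases split evenly, with 3 of 6 wholly inside and 3 with no base inside, alike in both lists. Ptprd, Ptprm (chromosome 17, 66666848 to 67354491) and Ptprk were inside, and Ptprt (chromosome 2, 161521988 to 162661147), Ptprn2 (chromosome 12, 116485695 to 117278167) and Ptprg were outside. Ptprt belongs to the same subfamily as Ptprm and Ptprk, so close relatives lay in opposite states. Secreted ligands and growth factor receptors split likewise, with 7 of 10 at 90% or more and 3 at 0 in both lists. Erbb4, a receptor tyrosine kinase (chromosome 1, 68031884 to 69108576), and its ligands Nrg1 (chromosome 8, 31807452 to 32891609) and Nrg3 (chromosome 14, 38365102 to 39473235) were all wholly inside by both lists. Alk, a receptor tyrosine kinase that is often mutated in neuroblastoma (chromosome 17, 71868988 to 72604702), had no base in either list, nor had Sema6d or Thsd4.

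Synaptic scaffolds and release genes had 7 of 12 past 50% in both lists and 4 at 0. Ctnnd2, delta-catenin (chromosome 15, 30172534 to 31029344), was wholly inside, and Erc2, an active zone protein (chromosome 14, 27622275 to 28478537), was wholly outside, with Magi1, Nbea and the vesicle calcium sensor gene Syt1. Transcription factors and cofactors had 9 of 17 at 90% or more in both lists and 5 at or under 10%. Npas3 (chromosome 12, 53248026 to 54072173), Camta1 and Nfia had no base in either list. Auts2 (chromosome 5, 131437333 to 132543220), a chromatin regulator gene, had 38.3% by Nanopore and 36.5% by Illumina. RNA-binding protein genes had 4 of 6 at 90% or more in both lists, among them Celf2 and Ralyl at 100%.

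Cell polarity and cytoskeleton genes had 9 of 19 past 50% in both lists, with 6 at or under 10%. Frmpd4 (chromosome X, 167471306 to 168577241) was wholly inside. Pard3b (chromosome 1, 61638667 to 62642284), of the Par polarity complex, and Exoc4, of the exocyst, had no base inside, and Agbl4, a tubulin deglutamylase (chromosome 4, 110397649 to 111664324), had 66.5% by Nanopore and 44.2% by Illumina. Intracellular signalling genes had 12 of 20 past 50% in both lists and 3 more by Nanopore only. Inpp4b, a phosphoinositide phosphatase, and Dgkb, a diacylglycerol kinase, were wholly inside, and Prkg1, cGMP-dependent kinase I (chromosome 19, 30564487 to 31765268), was the longest of all members with no base in either list. The proteoglycan and glycan enzyme group had 6 of 8 by Nanopore and 4 by Illumina, the difference being Gpc6 and Hs6st3. B3galt1, a galactosyltransferase, had no base in either.

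**Figure D5:**
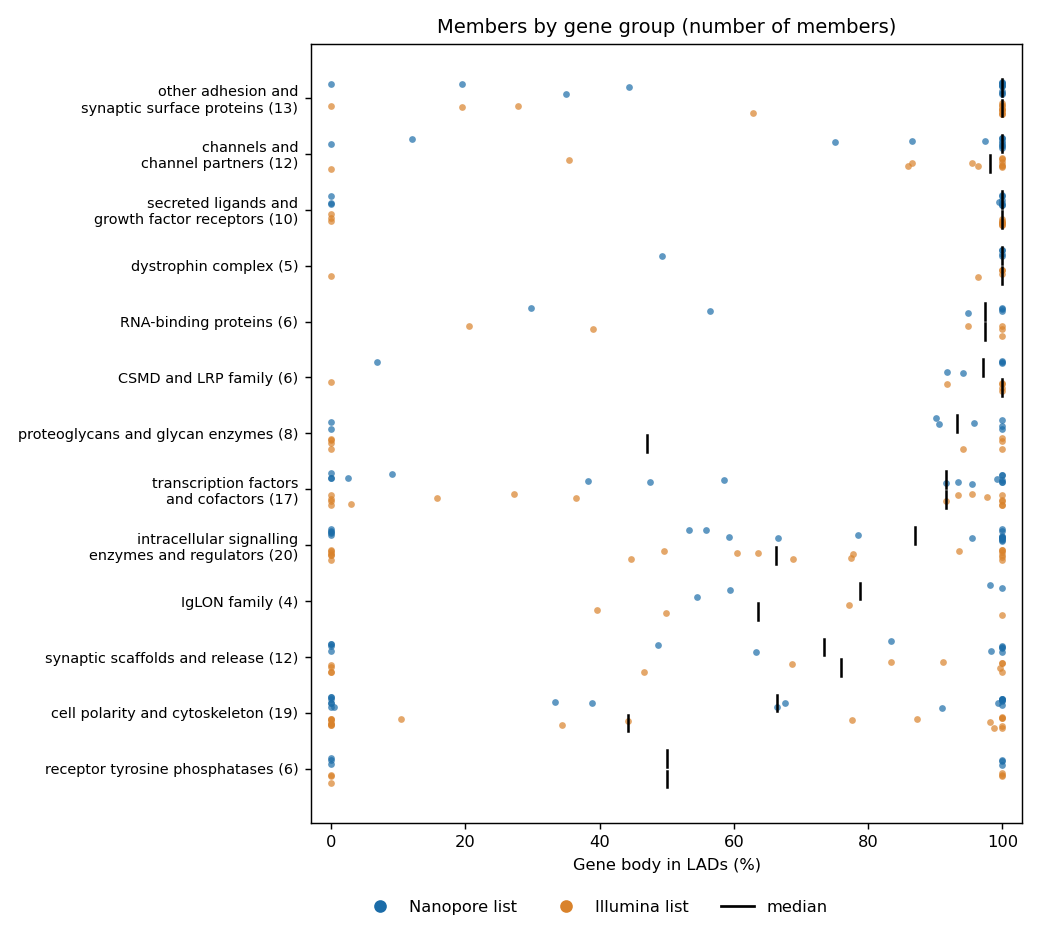
Share of the gene body in LADs (horizontal axis, percent) for each member of 13 functional groups (rows, with the number of members), by the Nanopore list (blue, upper) and the Illumina list (orange, lower); each point is a gene, black bars are medians, and points are spread vertically for sight only. Most points lie at 0 or 100%, and receptor tyrosine phosphatases have 3 at each.

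Genes at common fragile sites in human, a list that overlaps these groups, had 11 of 16 past 50% in both lists, against 118 of all 183 members. Dmd, Lrp1b, Il1rapl1, Ctnna3 and Rora had over 90% inside in both. Wwox, an oxidoreductase gene (chromosome 8, 114439635 to 115352712), Immp2l, a mitochondrial protease subunit gene (chromosome 12, 41024061 to 41955588), and Nbea had no base in either list. Genes known for the same kind of fragility in human cells thus lay in both states in N2A cells. The 12 longest of the 35 members with no base inside in either list were Prkg1, Immp2l and Wwox together with Ptprt, Pard3b, Erc2, Npas3, Camta1, Ptprn2, Arhgap26, Alk and Exoc4.

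The lists differed little for most members. The share of the body was equal in 124 of 183, within 5 percentage points in 143, higher by Nanopore in 45 and higher by Illumina in 14. Of the equal shares, 73 were 100% in both lists, 35 were 0 in both, and only 16 lay between. Equal shares were thus mostly those of genes wholly inside or wholly outside. Such counts of equal, higher and lower shares are not given here for all genes. At least 50% of the body was inside in both lists for 118 members, by Nanopore only for 13, by Illumina only for 1 and in neither for 51. Of all protein-coding genes, 28.9% passed by Nanopore, 25.4% by Illumina and 24.7% by both, so the lists were also mostly alike over all genes. The Nanopore list covers more of the span, 57.6 against 52.6% of the span, so a surplus on its side was present across the whole span as well.

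A few members differed by a large part of their length. Gpc6, a glypican that carries heparan sulfate (chromosome 14, 116924920 to 117979529), had 90.5% of its body in Nanopore LADs and none in the Illumina list. Hs6st3, a heparan sulfate sulfotransferase (chromosome 14, 119137516 to 119869815), had 90.1% and none, and both of its ends were outside the Nanopore LAD. Gpc6 shared its Nanopore LAD of 11.94 Mb with Gpc5 next to it (115092201 to 116525192), which was wholly inside by both lists, and the Illumina LAD there was 10.9 Mb wide and ended before Gpc6. Rabgap1l, a Rab GTPase regulator (chromosome 1, 160219174 to 160793476), had 55.9% and none. The 3 predicted genes over the protocadherin cluster on chromosome 18 had 75.05, 74.6 and 74.4% by Nanopore and 11.2, 11.4 and 11.5% by Illumina, from the same pieces. Rbms3 (chromosome 9, 116572746 to 117629913) had 56.5 and 20.5%, with both ends inside in both lists and a wider gap in the middle by Illumina, 840.0 kb against 460.0 kb by Nanopore.

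The opposite difference was rarer and smaller. Nav2, a neuron navigator gene for neurite growth (chromosome 7, 48959063 to 49610090), had 67.6% by Nanopore and 100% by Illumina. Both of its ends were outside LADs by Nanopore and inside by Illumina, and Gpc6 was the single member with the reverse. Fgf13 had 12.1% by Nanopore and 35.5% by Illumina. Fat3, a giant cadherin-like protein gene (chromosome 9, 15910189 to 16502681), had 44.3 and 62.9%, and was the one gene past 50% by Illumina only. Dpp6 and Frmd4a followed, with Frmd4a at 0.394% by Nanopore and 10.5% by Illumina.

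Members wholly inside lay mainly in wide LADs. The LAD around them had a median width of 2.98 Mb by Nanopore and 2.88 Mb by Illumina, against 0.69 and 0.66 Mb for all LADs, and a gene of 500 kb can lie wholly only in a LAD at least as wide. The widest was the 19.9 Mb Nanopore LAD, 19.56 Mb by Illumina, around Cadm2 on chromosome 16. By Nanopore 59 of the 83 whole members lay in LADs of 2 Mb or more, and by Illumina 52 of 77. Of all LADs, 211 of 1174 by Nanopore and 188 of 1149 by Illumina were that wide, counted per LAD and not per gene. A wide LAD holds more genes of any length, and the same count over all genes wholly inside was not made. The widths are thus not shown to be particular to the members. Some LADs held 2 members, such as Erbb4 with Spag16 (chromosome 1, 67080001 to 71500000 by Nanopore) and Lama2 with Ptprk (chromosome 10, 25540001 to 29300000), so the members are not independent observations.

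At the length limit the genes just inside were Edil3, Dock1 (503 kb) and Samd12 (503 kb), all 100% inside by both lists. The genes just under the limit were Dnm3 (496 kb), with 12.1% by Nanopore and none by Illumina, Lrrc7 (495 kb), with 100% by both, and Ank3 (494 kb), with none. Of the 9 members on chromosome X, 8 passed 50% in each list, where 43.3% of all protein-coding genes on that chromosome did by Nanopore and 32.7% by Illumina. Of the 174 on autosomes 70.7% did by Nanopore and 63.8% by Illumina, where 28.2 and 25.1% of all autosomal genes did. Chromosome 16 had 3 of 8 members in each list, with 33.3 and 30.2% of all its genes, and chromosome 1 had 14 and 13 of 16, with 29.0 and 27.6%.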

How the data were processed

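Dam fusions were induced with doxycycline, DNA was cut with DpnI and read by Nanopore, or Illumina libraries were made, per the labels' protocols. Tools named in the submitters' processing notes are bedtools, deepTools, minimap2 and SAMtools, with mm10 and hg38 as builds. The sources used here do not give the caller or its thresholds. The authors deposited 2 LAD lists, holding interval positions with no score; the human CTCF list, Dam-only and wild-type samples were not used here. Depth per sample is unknown.

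Genes and spans came from RefSeq on GRCm38.p6. Genes listed before 3 Mb (108 protein-coding) were left out, as placed sequence starts there. For each gene the percent of bases in LADs and the state of its first and last base were computed. Strand came with the RefSeq start windows, which list 146 of the 183 members; the other 37 have no named start or far end. Of these 146, 117 have a listed start within 1 kb of the gene's edge. An end means the edge of the annotated gene. The annotation counts the widest set of transcripts, so predicted isoforms lengthen some genes.

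No test was made, as each method gives 1 list without replicates, and genes that share a LAD are not independent. Gene groups and the list of fragile-site genes were written from general knowledge of the genes. Members, gene groups, alternatives and the naming rule were all chosen with earlier results of these data known. Named are the 12 longest members, up to 4 of each group, those with the largest differences between lists, the longest of each end class, the longest with no base inside and those at the length limit (74 genes). Further members are named as examples, chosen after their values were seen. The overlap code was tested on simulated data. Wilson intervals (95%) on shares served only to sort alternatives and cover counting error only. Python 3.11.15, numpy 2.4.6, pandas 2.3.3 and matplotlib 3.10.9 were used.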

Additional observations from a re-analysis of the deposited data

How the results depend on the processing

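Of 86 values of 8 shares recomputed under 13 alternatives, 75 stayed within the 95% Wilson interval of the reported share and 11 did not. Every value stayed within it under a length limit of 400 kb, other family omissions, narrow LADs left out, near LADs joined, chromosome X left out, overlapping members collapsed, midpoints, and the 2 alternatives chosen after seeing the data, which left out the predicted genes of chromosome 18 or used the listed start. Leaving out narrow LADs changed no share at all. The predicted genes have no strand, so leaving them out could not change the shares with only the start or only the far end inside. At 1 Mb 3 of 8 values stayed within it, and with each end read over 100 kb 2 of 6 did.

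With members of at least 1 Mb, 84.1% (Nanopore) and 72.7% (Illumina) had at least 50% of the body inside, 59.1% had both ends inside by Nanopore, 23.5% had only the start inside by Nanopore, and 14.7% only the far end by Illumina. At 80% of the body, 60.7% (Nanopore) and 56.8% (Illumina) of members passed. With each end read over 100 kb, both ends were inside in 59.6% (Nanopore) and 53.0% (Illumina), and only the far end in 3.42 and 4.11%, where a gap of a few grid steps at the start no longer counts. Only the start inside ran from 11.6 to 23.5% by Nanopore and 18.5 to 29.4% by Illumina. In each of the 11 alternatives that gave both classes it was the more common. These include the omission of the predicted genes, which could not change either class, and that of narrow LADs, which changed no share. No paired analysis was possible because the lists carry no samples.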
